A study of Mus musculus with 2 samples.

Results

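Of the 6629 p300-bound regions mapped in dorsal cerebral wall from mouse embryos at E14.5, 1239 (18.7%, exact 95% interval 17.8 to 19.7%) lay between genes at a middle distance. Their midpoints fell outside every annotated gene body and over 20 kb, but no more than 100 kb, from the closest protein-coding transcription start site. Position alone chose them, with no measured level involved. Of the other peaks, 3018 lay inside a gene, 1818 were intergenic and over 100 kb from a start, and 554 were intergenic and within 20 kb. The peaks came from 1 chromatin immunoprecipitation library, made with an anti-p300 antibody (C-20) from 0.15 g of tissue of Swiss Webster embryos, for which no genetic change or drug is stated. Its only comparison was an input library of the same tissue, which was not analysed here, and neither library had a replicate. The tissue held the neocortex with its progenitors, from which medial structures and choroid plexus had been cut away, so a peak cannot be given to one of its cell types. Intervals below therefore cover counting error only, peaks of 1 library are not replicates of a condition, and no test over samples was possible. The list gives positions without scores or read counts, so the depth behind a peak is unknown.

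p300 is a histone acetyltransferase that transcription factors bring to enhancers, the stretches of DNA that raise the activity of a gene from a distance. In the embryonic cortex, neurons arise from radial glia either directly or by way of intermediate progenitors. Proneural bHLH factors such as Neurog1 start this step, and the related factors Neurod2 and Neurod6 act in the young neurons. bHLH factors bind the E-box, a 6-letter word that begins with CA and ends with TG, whereas Lhx and many other homeodomain factors bind words built on TAAT. Nfi factors bind a half-site with TTGGC, POU factors an octamer, Sox factors words built on ACAA, Rfx factors a long palindrome, and CTCF a longer site found at the borders of chromatin loops.

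The sequences below show what such peaks look like. Each is the middle 200 bases, on the plus strand of mm9, of the peak closest to the start of 1 of 10 protein-coding genes. The first 9 are the genes with 5 or more of the 1239 peaks nearest to them, and Wnt7b is the one of 12 genes with 4 whose peaks lay closest on average. Capitals mark every match, on either strand, to the E-box words CAGATG and CAGCTG, the homeodomain words TAATTA and TAATTG, the Nfi half-site TTGGCA, the Rfx half-site GTTGCCA, the octamer ATGCAAAT, the Meis word TGACAG and the CTCF core.
Cplx2, chr13:54441489-54441688: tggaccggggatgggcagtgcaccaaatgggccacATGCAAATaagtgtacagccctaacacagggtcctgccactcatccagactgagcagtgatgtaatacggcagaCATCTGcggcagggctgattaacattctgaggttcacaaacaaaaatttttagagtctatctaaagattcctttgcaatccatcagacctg
C130026L21Rik, chr5:111967779-111967978: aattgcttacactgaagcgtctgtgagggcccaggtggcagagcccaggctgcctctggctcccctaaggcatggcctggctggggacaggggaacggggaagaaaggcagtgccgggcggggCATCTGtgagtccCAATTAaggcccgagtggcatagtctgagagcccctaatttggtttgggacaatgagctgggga
Lhx1, chr11:84361782-84361981: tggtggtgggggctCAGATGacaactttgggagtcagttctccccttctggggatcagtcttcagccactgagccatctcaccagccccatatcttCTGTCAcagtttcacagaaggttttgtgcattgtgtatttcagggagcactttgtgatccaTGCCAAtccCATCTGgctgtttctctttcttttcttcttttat
Foxo6, chr4:119935111-119935310: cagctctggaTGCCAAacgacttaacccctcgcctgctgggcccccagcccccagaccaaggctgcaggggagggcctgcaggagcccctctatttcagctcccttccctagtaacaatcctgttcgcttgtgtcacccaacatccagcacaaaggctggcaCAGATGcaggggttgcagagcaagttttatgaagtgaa
Tcf20, chr15:82763548-82763747: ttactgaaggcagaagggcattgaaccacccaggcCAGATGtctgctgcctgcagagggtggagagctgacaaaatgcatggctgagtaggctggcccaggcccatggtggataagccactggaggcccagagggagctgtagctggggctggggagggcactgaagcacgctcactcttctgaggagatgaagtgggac
Rps24, chr14:25332032-25332231: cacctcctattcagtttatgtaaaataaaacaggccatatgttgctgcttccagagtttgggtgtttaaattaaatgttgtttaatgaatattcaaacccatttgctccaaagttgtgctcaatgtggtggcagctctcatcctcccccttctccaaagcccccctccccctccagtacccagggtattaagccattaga
Naa11, chr5:97777742-97777941: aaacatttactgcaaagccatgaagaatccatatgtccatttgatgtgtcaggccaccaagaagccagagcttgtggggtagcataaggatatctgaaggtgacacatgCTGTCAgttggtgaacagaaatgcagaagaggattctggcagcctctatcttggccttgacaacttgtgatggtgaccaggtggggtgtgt
Sik1, chr17:31947195-31947394: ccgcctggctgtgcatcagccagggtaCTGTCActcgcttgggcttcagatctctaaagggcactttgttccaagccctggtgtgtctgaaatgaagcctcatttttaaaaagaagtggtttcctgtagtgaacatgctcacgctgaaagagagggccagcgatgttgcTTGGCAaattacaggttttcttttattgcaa
Gm9866, chr12:27790180-27790379: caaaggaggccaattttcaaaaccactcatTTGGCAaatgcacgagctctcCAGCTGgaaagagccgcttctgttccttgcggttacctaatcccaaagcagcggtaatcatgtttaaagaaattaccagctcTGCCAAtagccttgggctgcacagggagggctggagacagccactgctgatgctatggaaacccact
Wnt7b, chr15:85441093-85441292: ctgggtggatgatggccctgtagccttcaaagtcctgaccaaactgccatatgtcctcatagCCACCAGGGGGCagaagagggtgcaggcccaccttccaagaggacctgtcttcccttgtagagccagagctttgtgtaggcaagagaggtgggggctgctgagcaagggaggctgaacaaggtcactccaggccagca
The Lhx1 peak carried 4 marked sites, with an E-box on both sides of a Meis word and an Nfi half-site. The Gm9866 peak carried 3, with an Nfi half-site on both sides of an E-box. The Cplx2 peak paired an octamer with an E-box, the C130026L21Rik peak paired an E-box with a homeodomain word, and the Foxo6 peak paired an Nfi half-site with an E-box. The Rps24 peak had no marked site in this stretch, and the Wnt7b peak had a CTCF core as its only one.

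The peaks were spread over the middle distances in proportion to the sequence there. The bases that meet the rule came to 437.5 Mb, or 17.1% of the assembled sequence, and held 2.83 peaks per Mb (Poisson 95% interval 2.68 to 2.99). From 20 to 40 kb there were 461 peaks at 2.75 per Mb, from 40 to 60 kb 318 at 2.80, from 60 to 80 kb 264 at 3.04 and from 80 to 100 kb 196 at 2.82. Neighbouring intervals overlapped at every step, and the density from 100 to 200 kb was again 2.79 per Mb. Peaks inside genes had a density of 2.87 per Mb, and peaks over 100 kb away 2.35 per Mb. The density within 20 kb was lower, at 1.90 per Mb. It was 1.63 per Mb (1.44 to 1.83) up to 10 kb and 2.27 (2.01 to 2.54) from 10 to 20 kb. The authors removed peaks at exons and within 2.5 kb of a start, and the part of this in the lower density was not tested. Around the bounds themselves, 24 peaks lay in the last 1 kb before 20 kb and 21 in the first 1 kb after it, and the counts were 11 and 7 around 100 kb.

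**Figure D1:**
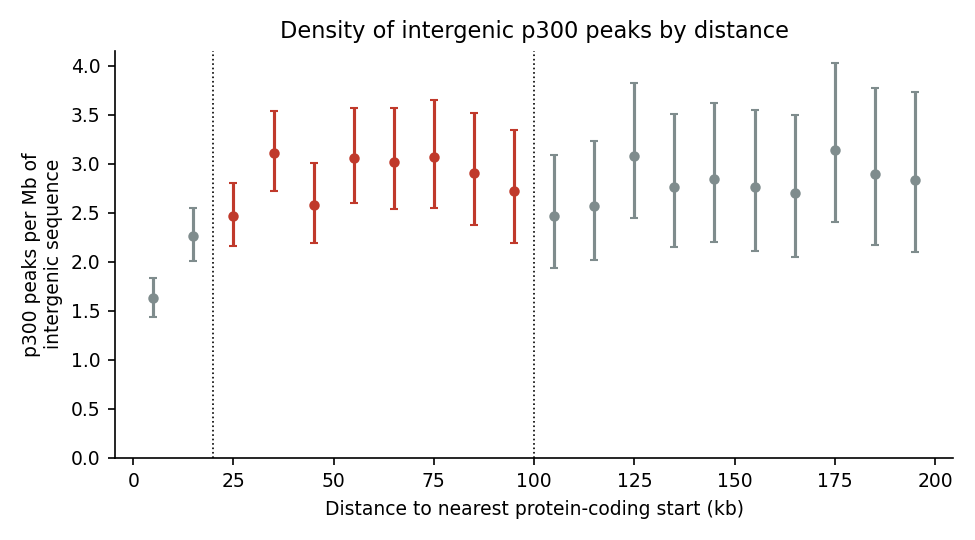
Intergenic p300 peaks per Mb of intergenic sequence (vertical axis) in 10 kb bins of distance to the nearest protein-coding start (horizontal axis, kb), with Poisson 95% intervals; red points lie between the dotted bounds of the rule and grey points outside them. The first bin holds 1.63 peaks per Mb and the second 2.27, and no trend is seen across the red points.

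Of the 1239 peaks, 763 (61.6%, 58.8 to 64.3%) lay upstream of the nearest coding start, and 61.9% of the bases that meet the rule lie upstream too. A start of a gene of any type, non-coding genes and pseudogenes included, lay within 20 kb of 221 of the peaks (17.8%), against 28.9% of all peaks and 10.4% of those over 100 kb away. The rule bars coding starts within 20 kb of these peaks and of the far ones. All peaks, in contrast, include the near ones, at 100% by definition, so the gap to 28.9% follows at least in part from the rule. The 50 bases around a RefSeq start matched letter for letter in 37 of them (2.99%, 2.11 to 4.09%), against 1.98% of the peaks over 100 kb away, 3.79% (2.36 to 5.74%) of those within 20 kb and 1.36% of those inside genes. Of those 37 starts, 36 belonged to genes whose name is not in the annotation used to choose the peaks. A small part of the peaks named intergenic therefore covers a start that a later annotation holds.

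The density differed between chromosomes. It was highest on chromosome 11, with 72 peaks at 4.55 per Mb (3.56 to 5.73), followed by chromosome 12 at 4.15 and chromosome 5 at 3.98, and these intervals overlapped. Chromosome X had 11 peaks in 37.7 Mb, or 0.292 per Mb (0.146 to 0.523), and chromosome 3, the lowest autosome, had 1.84 (1.37 to 2.41). The interval of the X chromosome lay below that of every autosome. Reads of 36 bases can be placed at fewer positions there, since 64.4% of sampled words of that length on the X chromosome sequence of the rule occurred once in the assembly, against 80.8% over all sequence of the rule. The part of this in the low count was not tested beyond those values.

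Widths were close to those of the whole list. The median width was 1012 bp (997 to 1026), the lower and upper quartiles were 848.5 and 1246 bp, and the median of all peaks was 1017 bp. The narrowest, 391 bp, lay 32.8 kb upstream of Cul1, a scaffold of ubiquitin ligases. The widest, 4243 bp, lay at chr13:84485204-84489446, 57.1 kb from the gene model Gm17618. Among the 5 widest was a peak of 2859 bp 32.0 kb upstream of Plxna2, a receptor for semaphorins in axon guidance.

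Peaks at this distance were richer in G and C than peaks farther away. Their median GC content was 47.4% (47.0 to 47.9), against 42.0% (41.5 to 42.4) for peaks over 100 kb, 45.4% inside genes and 49.3% (48.5 to 49.6) within 20 kb. It fell across the middle distances themselves, from 48.1% (47.4 to 48.9) at 20 to 40 kb to 45.5% (44.6 to 46.8) at 80 to 100 kb. Along the peaks it rose from 44.7% at 2000 bases from the midpoint to 49.5% at the midpoint.

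A small set stood out as CpG-rich, here a GC content over 55% with over 0.65 of the CpG dinucleotides expected from the base composition. There were 34 such peaks (2.74%, 1.91 to 3.81%), against 3 of the 1818 peaks over 100 kb (0.165%) and 22 of the 3018 inside genes (0.729%). The difference was 2.58 points (Newcombe 95% interval 1.74 to 3.65) from the far peaks and 2.02 points (1.16 to 3.11) from those inside genes. The near peaks had 4.69%, a difference of −1.95 points (−4.18 to −0.13). One of the 34, at chr11:98155612-98156672, was 34.8 kb downstream of Neurod2 and had a GC content of 71.4% in its middle 500 bases. Another, at chr2:151873289-151875590, was 32.8 kb from Scrt2, a zinc finger repressor of neurons, and one more lay 26.3 kb upstream of the growth factor receptor gene Fgfr3. RefSeq starts lay in 4 of the 34, so 30 held none that was matched.

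Motifs were counted in the middle 500 bases of each peak and in the 858544 windows of the same length that tile the sequence of the rule and touch no peak. E-boxes of 2 forms were frequent. CAGATG was in 726 of the 1239 peaks (58.6%, 55.8 to 61.4%) and in 34.7% of windows, a fold of 1.69 (1.61 to 1.77). CAGCTG was in 516 peaks (41.6%, 38.9 to 44.4%) and in 17.1% of windows, a fold of 2.44 (2.28 to 2.60). Against windows standardised to the GC content of the peaks the folds were 1.64 for CAGATG and 1.72 for CAGCTG. Among all 6629 peaks the shares were 57.4% for CAGATG and 39.7% for CAGCTG, so neither form set the middle distances apart. At least one of these forms was in 952 of the peaks (76.8%), against 74.1% of all peaks. Of the 1239, 308 (24.9%) held 2 such sites, against 23.9% of all peaks, and 1 peak held 13.

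The other E-box forms had lower folds. CAAATG was at 0.97 of the level in windows, CAACTG at 1.05, CAAGTG at 1.06 and CACATG at 0.88, and the intervals of the first 3 of these included 1. CAATTG was at 0.70 and CATATG at 1.11. Against the standardised windows CATATG was at 1.42, CAAATG at 1.25 and CAATTG at 0.94, and CATATG was at 1.33 against flanks of the same peaks. CACGTG, the form bound by Myc and clock factors, was 1.49-fold above windows but 1.14-fold above the standardised ones. CACCTG, the form bound by Zeb and Snail repressors, was 1.19-fold above windows and at 0.90 of the standardised ones.

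Homeodomain words were also enriched. TAATTA was in 351 peaks (28.3%, 25.8 to 30.9%), 1.82-fold (1.66 to 1.99) above windows, and TAATTG in 412 (33.3%, 30.6 to 36%), 1.48-fold (1.36 to 1.60). Because the peaks are GC-rich and these words are not, the fold rose to 3.06 and 2.23 against windows of the same GC content. The shares of all peaks were 31.3% for TAATTA and 35.6% for TAATTG. The POU octamer was in 92 peaks (7.43%), 1.68-fold above windows and 2.55-fold above the standardised ones, with 7.60% of all peaks.

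Nfi half-sites were in 514 peaks (41.5%, 38.7 to 44.3%), 1.80-fold (1.68 to 1.92) above windows and 1.78-fold with the GC content held, against 42.3% of all peaks. The full Nfi palindrome, with 5 bases between its half-sites, was in 2 peaks (0.161%), against 0.0302% of windows and 0.272% of all peaks. Its fold of 5.35 over windows had a wide interval (0.65 to 19.3) that included 1. Meis words were in 502 peaks (40.5%), 1.43-fold above windows, against 43.0% of all peaks. T-box words AGGTGTGA, bound by Tbr1 and Eomes, were in 47 (3.79%, 2.80 to 5.01%), 1.93-fold (1.42 to 2.54) above windows, against 3.03% of all peaks.

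The Rfx palindrome gave the highest fold of the 30 motifs. The half-site GTTGCCA was in 136 peaks (11.0%, 9.29 to 12.9%), 2.38-fold (2.01 to 2.78) above windows, against 9.64% of all peaks. The full palindrome was in 7 peaks (0.565%), 18.6-fold (7.48 to 38.2) above windows, against 0.453% of all peaks, and the fold was 11.5 with the GC content held. The 7 sites are shown because they carry that count, each named by the gene with the nearest coding start and read on the plus strand of mm9 with both half-sites and the central CATG in full.
Ank3, chr10:68928497-68928510: GTTGCCATGGCAAC
4930524B15Rik, chr11:31841536-31841549: GTTGCCATGGTAAC
Il9r, chr11:32013309-32013322: GTTGCCATGGAAAC
Tob1, chr11:94021950-94021963: GTTTCCATGGCAAC
1300014I06Rik, chr13:34668016-34668029: GTTACCATGGCAAC
Lsamp, chr16:41511291-41511304: GTTACCATGGTAAC
Camk2n1, chr4:138093312-138093325: GTTGCCATGGGAAC
The site beside Lsamp lay 50.5 bases to the right of its peak's midpoint and the one beside Ank3 at −175 bases from it, so the sites were not all central.

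Sox words and the Gata word, a contrast motif, were not above the level in windows. ACAAAG was in 490 peaks (39.5%), 1.00 of the level in windows (0.93 to 1.07), and ACAATG in 327 (26.4%), 0.92 of it (0.83 to 1.00). With the GC content held, the folds were 1.17 for ACAAAG and 1.18 for ACAATG. All peaks had 40.8% for ACAAAG and 27.2% for ACAATG. The word of Gata factors of blood, GATAAG, was in 114 peaks (9.20%, 7.65 to 10.9%), about 0.53 of the level in windows (0.44 to 0.63), against 11.9% of all peaks. The difference from the peaks outside the middle distances was −3.27 points (−5.01 to −1.33). It was not particular to this word, being −4.51 points (−7.43 to −1.51) for CAAATG and −3.64 (−6.38 to −0.78) for TAATTA. In an analysis added after the data were seen, other classes were weighted to the same GC content. The GATAAG difference went from −4.33 to −1.70 points for the far peaks, from −2.71 to −3.85 for the near ones and from −2.73 to −2.07 for those inside genes. The palindrome of Hnf1, a factor of liver and kidney and the other contrast, was in 0 of the 1239 peaks, which allows a share of up to 0.297% by the exact interval. It was also in 0 of all 6629 peaks and in 20 of the 858544 windows (0.00233%). At that rarity the interval of its fold ran from 0 to 128, so the count cannot tell a low level from a high one.

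The GC box and the CTCF core were more common in these peaks than in the far and genic ones, and less common than in the near ones. The GC box GGGCGG, bound by Sp and Klf factors, was in 192 (15.5%, 13.5 to 17.6%), against 12.1% of all peaks, and exceeded the peaks outside the middle distances by 4.12 points (2.02 to 6.40). Its difference was 7.30 points (4.96 to 9.73) from the far peaks, 3.97 points (1.72 to 6.35) from those inside genes and −5.44 points (−9.50 to −1.62) from the near peaks, 20.9% of which held it. The other classes were also weighted to the same GC content, in an analysis added after the data were seen. The GC box differences then were −1.20 points from the far peaks, 1.64 from those inside genes and −1.58 from the near ones. Its fold of 3.68 over windows became 1.37 with the GC content held. The CTCF core was in 27 peaks (2.18%, 1.44 to 3.15%), against 1.43% of all peaks, and exceeded the other peaks by 0.92 points (0.16 to 1.93). It differed by 1.30 points (0.43 to 2.33) from the far peaks, by 1.22 points (0.42 to 2.23) from those inside genes and by −1.97 points (−4.08 to −0.29) from the near peaks, with 4.15%. With the same weighting, the CTCF differences were 0.82, 1.15 and −1.57 points in the same order. Its fold was 8.24 over windows and 3.48 with the GC content held.

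**Figure D2:**
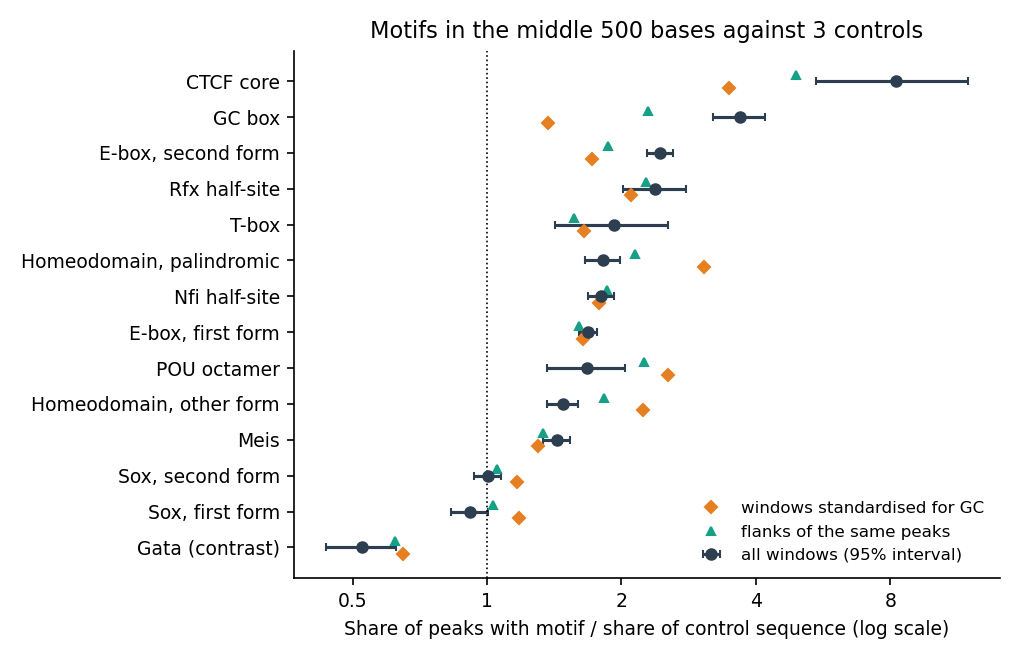
Share of the 1239 peaks with a motif divided by its share in control sequence (horizontal axis, log scale) for 14 motifs, against all windows (circles, 95% interval), windows of the same GC content (diamonds) and flanks 1500 to 2000 bases from the midpoints (triangles). The first E-box form is CAGATG and the second CAGCTG, the palindromic homeodomain word is TAATTA and the other TAATTG, and the first Sox form is ACAATG and the second ACAAAG; the blood-factor word GATAAG lies below 1 with every control.

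Most of the enriched motifs were concentrated at the midpoints. CAGATG occurred 2.31 times per kb (2.12 to 2.51) within 100 bases of the midpoint and 0.916 times per kb beyond 1000 bases, a ratio of 2.52. The same ratio was 3.13 for CAGCTG, 3.17 for TAATTA, 2.90 for the Nfi half-site, 2.77 for the octamer and 2.78 for the Rfx half-site. It was lower, 1.70, for the Meis word and 1.48 for the T-box word, whose interval within 100 bases (0.0588 to 0.139 sites per kb) included the 0.0626 per kb beyond 1000 bases. It was 1.15 for ACAAAG and 0.60 for GATAAG, which thinned out towards the midpoint. The CTCF core had 17 sites within 100 bases, and its ratio of 7.08 was higher than those of the factors above.

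**Figure D3:**
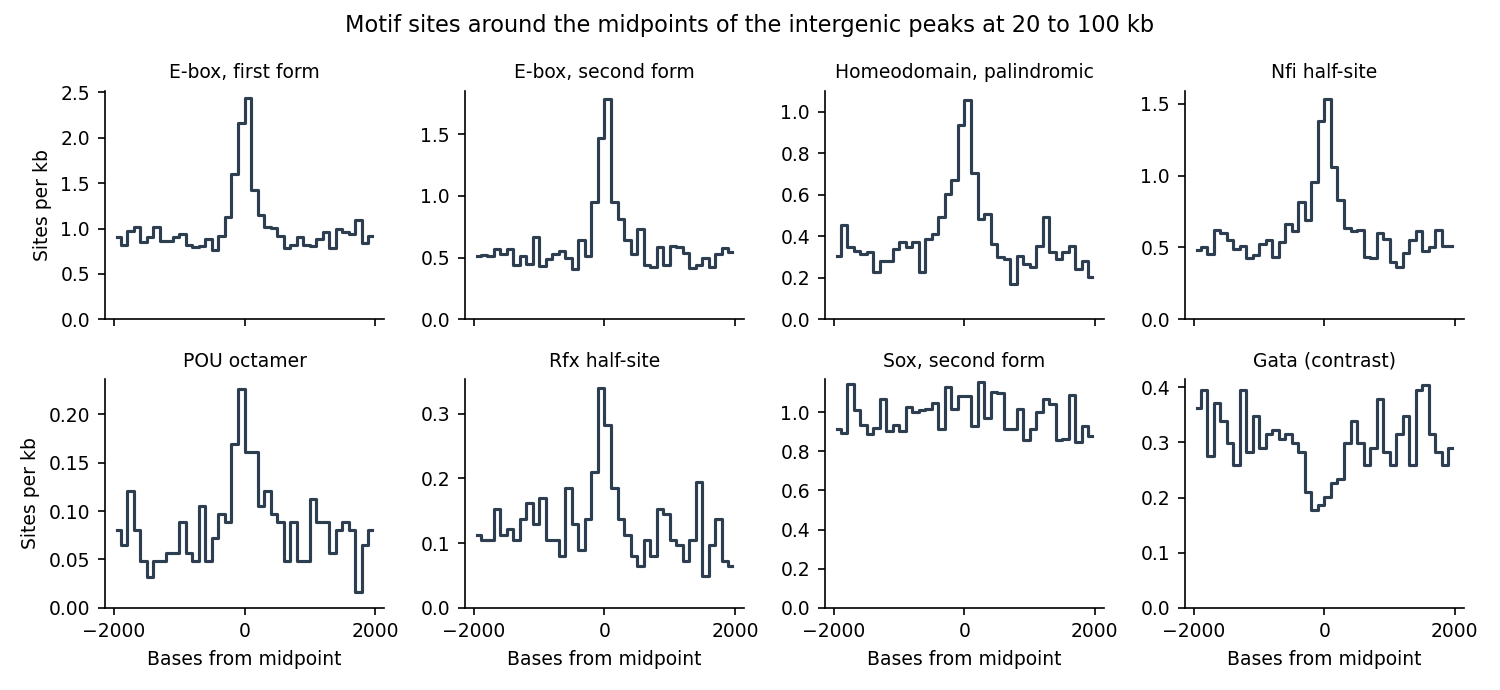
Sites per kb (vertical axes, each on its own scale from 0) in 100-base bins by distance from the midpoint (horizontal axes, bases) for 8 motifs in the 1239 peaks, with CAGATG as the first and CAGCTG as the second E-box form, TAATTA as the palindromic homeodomain word and ACAAAG as the Sox word. The first 6 panels peak at the midpoint and the Gata panel dips. The Sox panel rises slightly, with 1.09 sites per kb (0.967 to 1.23) within 100 bases against 0.954 beyond 1000 bases.

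Counts of every word of 6 letters in the middle 500 bases, set against flanks of the same peaks, gave a median ratio of 1.01. The 10 words with the highest ratio all held CpG, led by CGCGGC with 105 sites in the middles and 12 in the flanks, a ratio of 17.5 per base. Of the 921 sites of these 10 words, 510 (55.4%) lay in the 34 CpG-rich peaks. That share follows in part from how those peaks were defined, by the GC and CpG content of the same bases. The first words without CpG were AATTAG (2.54), TAATTA (2.48), ATTAGC (2.43), TAATTG (2.27) and CAGCTG (2.24), which are homeodomain and E-box words. The lowest was CATATA at 0.38.

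Motif content differed between narrow and wide peaks. In the 310 peaks no wider than the lower quartile CAGATG was in 57.1%, and in the 311 at least as wide as the upper quartile in 47.3%, a difference of −9.83 points (−17.5 to −1.97). The difference was −10.4 points (−17.9 to −2.76) for CAGCTG, −8.83 points for the Nfi half-site and −9.79 points for the Meis word. TAATTA ran the other way, with 62 of the narrow and 103 (33.1%) of the wide peaks, a difference of 13.1 points (6.18 to 19.9), and TAATTG did the same with 13.1 points. The GC box was 8.65 points more common in wide peaks (2.99 to 14.3), and the CTCF core, in 4.19% of narrow and 0.965% of wide peaks, differed by −3.23 points (−6.15 to −0.71). The middle 500 bases had a median GC content of 48.1% (47 to 49) in the narrow and 47.8% (46.8 to 49.2) in the wide peaks, and these intervals overlapped.

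Against the peaks over 100 kb away, the homeodomain words were less common and CAGCTG more common at the middle distances. TAATTA was in 28.3% against 37.3%, a difference of −9.02 points (−12.3 to −5.64), and TAATTG in 33.3% against 44.2%. CAGCTG was in 41.6% against 34.8%, a difference of 6.83 points (3.32 to 10.3). The far peaks were then weighted to the same GC content, in an analysis added after the data were seen. The difference became 0.46 points for TAATTA, −1.41 for TAATTG and 1.29 for CAGCTG. Other words kept more of a difference under that weighting. CAAATG went from −9.94 points (−13.4 to −6.41) to −5.83, and CATATG from −8.54 (−11.4 to −5.63) to −3.18. The Nfi half-site went from −3.40 points (−6.95 to 0.18) to −5.05. Against the 554 peaks within 20 kb, TAATTA was 8.47 points more common (4.19 to 12.5) and stayed 7.23 points more common with the GC content weighted. The Meis word was 5.86 points more common than in the near peaks (0.99 to 10.6). It was less common than in the other classes, with differences of −3.76 points (−7.31 to −0.19) from the far peaks and −4.25 points (−7.48 to −0.97) from those inside genes. With the GC content weighted, the Meis differences were 5.73 points from the near peaks, −4.86 from the far ones and −4.13 from those inside genes.

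**Figure D4:**
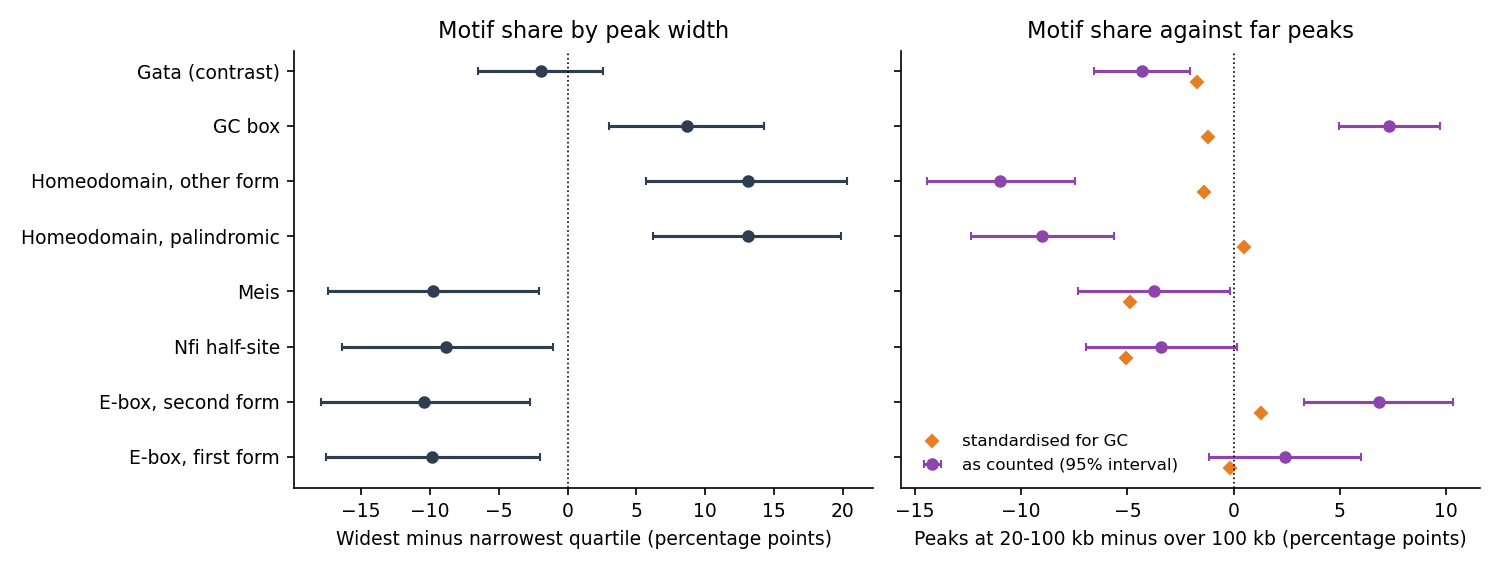
Differences in the share of peaks with a motif, in percentage points (horizontal axes), between the widest and narrowest quartiles of the 1239 peaks (left) and between these peaks and those over 100 kb away (right, circles), with Newcombe 95% intervals; diamonds give the second difference after weighting the far peaks to the same GC content. The first E-box form is CAGATG and the second CAGCTG, the palindromic homeodomain word is TAATTA and the other TAATTG; both homeodomain words lie right of 0 on the left and, as circles, left of 0 on the right.

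Pairs of motif families were counted against the product of their single shares. An E-box of the enriched forms and a homeodomain word met in 446 peaks, where the product of their shares gives 463, and an E-box and an Nfi half-site met in 411, where it gives 395. Over all pairs of families the ratio of the count to that product ran from 0.82, for an E-box with an octamer (58 peaks against 70.7), to 1.39, for an octamer with an Rfx half-site (14 against 10.1). Of the families E-box, homeodomain, Sox and Nfi, 476 peaks (38.4%) held 2, 363 (29.3%) held 3, 119 (9.60%) held all 4 and 39 (3.15%) held none, against 39.2%, 31%, 8.81% and 2.58% of all peaks in the same order. Sequence of the middles was rarely shared. Only 23 of the 1239 (1.86%) aligned over 60 bases or more with the middle of another peak over 1 kb away, and 8 of them aligned with another of the 1239. The longest such alignment joined 2 peaks beside Klhl25 on chromosome 7, over 348 bases at 95.7% identity in opposite orientation. Reads from such copies may be hard to place.

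The spacing of these peaks was near that of the whole list. Another p300 peak of any class lay within 50 kb of 614 (49.6%, 46.7 to 52.4%), against 50.1% of all peaks. That exceeded the peaks over 100 kb by 4.51 points (0.90 to 8.10) and differed from the peaks inside genes by −3.96 points (−7.25 to −0.65). Chains of the 1239 peaks with steps under 50 kb made 196 groups of 2 or more, which held 495 of them, and the other 744 were in no such group. The largest had 7 peaks over 75.2 kb on chromosome 4, between Edn2, which encodes an endothelin, and Foxo6, a forkhead factor of the brain.

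The 1239 peaks had 938 different nearest coding genes, of which 733 had 1 peak, 145 had 2 and 60 had 3 or more. Cplx2, which encodes a complexin of the synapse, and the gene model C130026L21Rik had 7 each, where the bases assigned to them give 0.267 and 0.402 at the mean density. Lhx1 (ENSMUSG00000018698.7, chr11:84331479-84338923, minus strand), a LIM homeodomain factor, had 6, all upstream and between 23.0 and 53.7 kb away, within 31.6 kb of sequence. These 6 were narrow, from 755 to 1010 bp, and held 11 CAGATG, 3 CAGCTG and 9 homeodomain words in their middles. Foxo6 (ENSMUSG00000052135.7, chr4:119939684-119959954, minus strand) also had 6, all downstream and between 24.7 and 60.4 kb away, and 5 of these were from 1496 to 1889 bp wide. Tcf20, a transcriptional co-regulator, the ribosomal protein gene Rps24, the acetyltransferase gene Naa11, the kinase gene Sik1 and the gene model Gm9866 had 5 each. Wnt7b, a Wnt ligand, had 4, all upstream, with one of 73.8% GC. Lingo1, a Nogo receptor partner, had 4, all upstream, and the growth arrest gene Gadd45g had 4, all downstream. The nearest gene is a label of position, and no target was measured.

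Of the 11 gene lists, those for intermediate progenitors and neuronal bHLH factors had more peaks than the sequence around their genes gives, with intervals above 1. The list for intermediate progenitors, of 9 genes with 8 that have sequence of the rule, had 7 peaks where 0.841 come from its bases, a fold of 8.32 (3.35 to 17.1). The genes were Gadd45g, which alone held 4 of the 7 peaks, the Notch ligand gene Dll1 with 2, and Neurog1 with 1. The 7 peaks of the list for neuronal bHLH factors, of 9 genes with 8 that have such sequence, compare with 1.36, a fold of 5.13 (2.06 to 10.6). They included 3 by Neurod6 and 2 by Neurod2. Over all 10809 genes with sequence of the rule the fold is 1 by construction, and the lists were chosen with results of these data known. The intervals take peaks as independent, yet peaks can group: those of Gadd45g lay as close as 2.30 kb to each other. Such groups also occurred beside genes in no list, as with the 5 peaks of Rps24, where 0.227 come from its bases. An interval above 1 therefore says less about a list than it would for independent peaks.

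The peaks beside these genes differed in their sequence. The Neurod6 peaks, 22.9 kb upstream, 33.9 kb downstream and 64.4 kb upstream, held 6 TAATTA words in their middles but only 1 E-box of the enriched forms. The Dll1 peaks, 32.7 and 52.6 kb downstream, held 3 CAGATG in one and 2 CAGCTG in the other. The peak 30.0 kb downstream of Neurog1 held one of each form and an octamer. The 2 peaks downstream of Neurod2 were unlike each other, with a GC content of 71.4% at 34.8 kb and 41.4% at 45.8 kb. The second, 2207 bp wide, spans chr11:98144420-98146142, an element named elt3 that the study tested in transgenic embryos, and its middle is shown with that of the peak 31 kb downstream of Lmo4, a LIM-only cofactor. The Lmo4 peak was picked after its values were seen, since its middle 500 bases held 8 TAATTA words, of which 3 fall in the stretch shown. Capitals are as above.
Neurod2, chr11:98145072-98145271: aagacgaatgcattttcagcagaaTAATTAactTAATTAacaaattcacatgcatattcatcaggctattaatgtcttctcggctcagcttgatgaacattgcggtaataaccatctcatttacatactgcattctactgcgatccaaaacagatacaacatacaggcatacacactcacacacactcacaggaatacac
Lmo4, chr3:143837080-143837279: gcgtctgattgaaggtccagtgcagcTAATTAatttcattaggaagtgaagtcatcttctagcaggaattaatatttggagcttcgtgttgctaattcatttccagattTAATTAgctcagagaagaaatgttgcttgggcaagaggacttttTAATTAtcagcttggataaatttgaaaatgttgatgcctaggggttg
The element shown for Neurod2 had 2 homeodomain words whose starts lie 9 bases apart and no E-box of the enriched forms.

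The intervals of the remaining lists all included 1. Axon guidance genes had 6 peaks (fold 1.29, 0.47 to 2.80), beside Epha4 (2), Plxna2, Robo1, Robo2 and Sema6a. Radial glia genes had 1 peak, beside Lhx2 (fold 0.44), and upper-layer and subpallial interneuron genes 1 each, beside Lmo4 and Lhx8. The housekeeping list, a contrast, had 2 peaks where 0.619 come from its bases, both beside Eef1a1 (fold 3.23, 0.39 to 11.7). Deep-layer neuron genes had 0 where 1.56 come from their bases, which allows a fold of up to 2.36, and SoxC and Nfi, Hox, and liver and blood genes had 0. With peaks given to either flanking named coding gene instead, an assignment added after the data were seen, intermediate progenitor genes had 16 (fold 9.61, 5.49 to 15.6), neuronal bHLH genes 14 (3.92, 2.14 to 6.57) and SoxC and Nfi genes 15 (5.11, 2.86 to 8.43), while housekeeping genes had 4 (2.29, 0.62 to 5.87). Those of SoxC and Nfi genes were 8 peaks flanked by Nfia, of which 4 had the gene model Gm10192 nearest, and 7 flanked by Sox11, of which 5 had the gene model Gm9866 nearest.

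**Figure D5:**
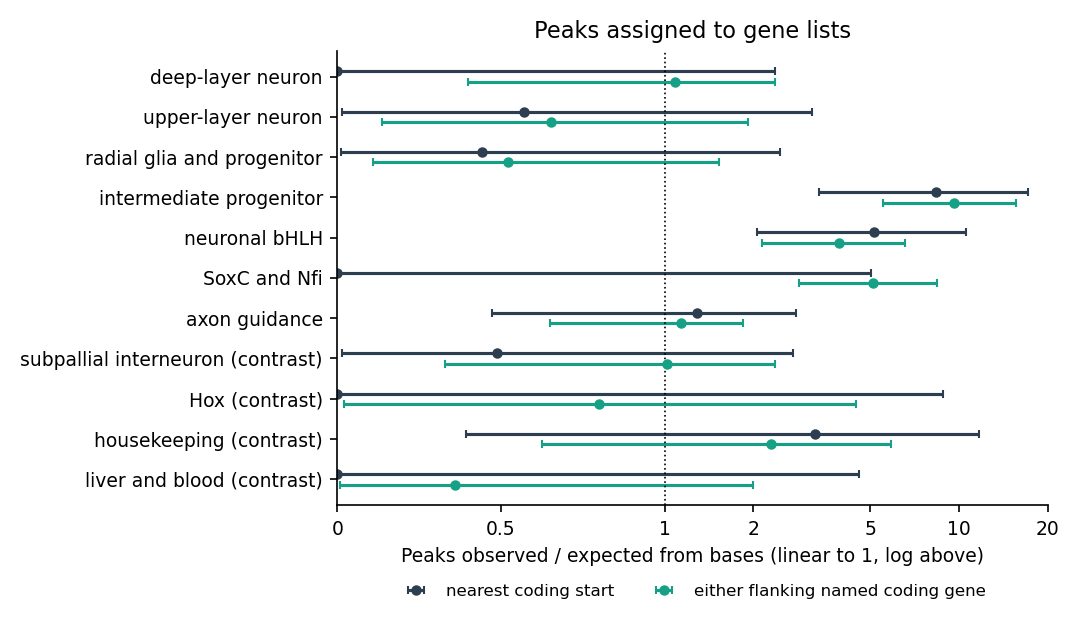
Peaks observed over the number expected from the bases of the rule assigned to each gene list (horizontal axis, linear to 1 and log above), with Poisson 95% intervals, for the nearest coding start (dark) and for either flanking named coding gene (green). The intermediate progenitor and neuronal bHLH intervals lie above 1 under both assignments and that of SoxC and Nfi under the second, while the housekeeping contrast has points above 1 under both (3.23 and 2.29) with intervals that include 1.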

How the data were processed

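p300 binding in E14.5 dorsal cerebral wall was measured by ChIP-seq in 1 library, with 1 input library that was not analysed here. By the study's methods, ELAND gave the mm9 alignments of the 36-base reads (reads with several placements were not used), and MACS (1.4 by the submitters' processing notes) made the calls with the input as background. A later filter by the authors was directed at exons, promoters (a margin of 2.5 kb) and sequence with ambiguous alignments. The deposited list holds positions only (other columns: a peak name), with no score, count or signal, so the depth per peak is unknown.

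Positions were read against NCBIM37, which is the mm9 assembly, and GENCODE vM1 (37252 genes on chromosomes 1 to 19 and X, 22350 of them protein-coding). Each coding gene had 1 start, taken from the transcript whose coding sequence is longest. The 30 motifs were searched as exact words on both strands of the middle 500 bases, and folds set their share against windows of 500 bases. RefSeq starts came from GRCm38 promoter sequences and were matched by sequence, with no coordinates used. Shared sequence was found with blastn 2.17.0 at an E value of 1e-06, and unique words were sampled every 500 bases. Python 3.11.15, numpy 2.4.6, scipy 1.17.1, numba 0.67.0 and matplotlib 3.10.9 were used, and the methods were tested on simulated data.

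Intervals are Clopper-Pearson for shares, Poisson for counts, order-statistic for medians and Newcombe for differences. The genes named are the 20 nearest to most peaks, genes of the 11 fixed lists with 2 or more peaks, and those beside an element the study tested. List genes with 1 peak were also named. The peaks, lists and motifs were chosen with earlier results of these data known. The gene Spi1 of the liver and blood list did not match the annotation. Alternatives changed start sites, peaks counted, gene bodies, control windows and distances. Some items under these rules are not reported here.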

Additional observations from a re-analysis of the deposited data

How the results depend on the processing

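No paired analysis was possible because each group had 1 library and no test over samples was run. The number of peaks that meet the rule ranged from 1142 to 1536 over 7 alternatives. Density was 2.61 per Mb with peaks under 5 kb apart joined, 1.39 with only peaks of median width or wider, and 3.51 per Mb of positions with a unique 36-base word. The first follows from fewer peaks and the last from fewer bases. The median GC content was 48.6% in the middle 500 bases. Of peaks of median width or wider, 58.6% lay upstream of the nearest coding start. The share with another peak near by was 42.4% with peaks joined, 43.3% for peaks of median width or wider, 32.7% within 20 kb and 64.7% within 100 kb. Motifs over 1.5-fold numbered 13, and 11 to 15 under the alternatives, and gene lists over 1.5-fold numbered 3 to 4.

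Some motif folds crossed 1. Against windows of the same GC content the fold was 0.90 for CACCTG, 0.99 for the Rbpj word GTGGGAA and 0.74 for the Ets word CCGGAAG. Against flanks of the same peaks it was 0.96 for GTGGGAA and 1.08 for CAATTG. In an analysis chosen after the data were seen, differences from peaks over 100 kb changed sign with those peaks weighted to the same GC content, to −1.42 points for CACCTG, 0.46 for TAATTA and −1.20 for the GC box. That the sign depends on base composition follows from the weighting, and what lies behind it was not tested. The single library and the list without scores limit precision throughout.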

Other observations

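Some of the peaks lay beside genes outside the lists. By flanking genes, an assignment chosen after the data were seen, 7 peaks lay next to Tle3, a Groucho co-repressor, where 0.772 come from the bases, and 7 next to Mn1, where 0.730 do. Uncx, a homeodomain gene, had 6 where 0.348 do. Higher counts by this assignment were 9 for Cplx2 and 8 each for Foxo6 and Nfia. Other genes equalled those named, such as Cryba4 with 7 where 0.704 do. Tle3, Mn1 and Uncx were thus picked from among genes with high counts, and the values are a description. A peak counts here for each gene that flanks it, and the paper places Mn1 and Cryba4 on either side of a single gene desert. Their counts of 7 are therefore not to be read as separate groups of peaks. Overlap with the 7 peaks nearest to C130026L21Rik was not tested.

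The 27 peaks with a CTCF core had a median width of 951 bp (769 to 1112), against 1014 bp (998 to 1026) for the other 1212. E-boxes of the forms CAGATG and CAGCTG lay 20 to 30 bases apart, centre to centre, in 84 pairs, or 8.4 per base of spacing, against 6.7 at 10 to 20 bases and 6.9 at 30 to 40 bases. Every pair within a peak was counted, and single peaks held 8, 11 and 13 such sites, so a few peaks may weigh heavily. Spacing was not counted in control sequence and no interval was computed, so no preferred spacing can be read from these counts.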
